A study of Mus musculus with 90 samples.

Results

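The interferon-stimulated genes described here are 33 genes named in a list, each taken by the RefSeq entry with the highest mean RPKM (read number scaled to transcript length and sequencing depth), out of 24312 gene symbols in the RNA-seq table. All 33 were found, and their levels were followed in 54 mouse livers from 5 experiments, with most weight on the glucocorticoid dexamethasone (dex) and on loss of the glucocorticoid receptor (GR) in liver. The series asked how feeding, glucocorticoids and insulin set the genes expressed in liver after a meal. Before the livers were taken, all mice were trained to night-restricted feeding (NRF), in which food is present only in the dark. The dark began at zeitgeber time (ZT) 12. By the methods, the wild-type mice had free access to chow until the last days before the experiment. The remaining libraries of the series are ChIP-seq and DNase-seq, of which only the peak lists were used here.

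The groups were these. In the NRF experiment, wild-type C57BL/6 mice were taken at ZT10, at ZT14 without food, or at ZT14 with food since the start of the dark (2 livers each). In the injection experiment, wild-type C57BL/6 mice received an intraperitoneal injection shortly before the dark and were taken at ZT14. They received vehicle and no food, or were fed after vehicle, dex (1 mg/kg), the insulin receptor antagonist S961, or dex + S961 (4 livers each). In the GR experiment, Nr3c1 (fl/fl) mice on a C57BL/6 background received adeno-associated virus carrying GFP or CRE under the Tbg promoter, which is active in hepatocytes, and were taken unfed at ZT14 (4 livers each). Both arms thus carried the floxed gene and a virus, and GR in liver cells other than hepatocytes was not the target. In the IRS experiment, Irs1 (fl/fl), Irs2 (fl/fl) mice were compared with mice that lacked both insulin receptor substrates in liver through Alb-Cre, which is active in hepatocytes (L-IRSdKO), and all 8 livers came from fed mice given dex at 1 mg/kg. In the obesity experiment, C57BL/6 mice had free access to a high-fat diet or chow for 10 weeks. They were then trained to NRF and taken unfed or fed at ZT14 (3 livers each). The wild-type mice of the NRF and injection experiments were 10 weeks old by the study's methods, as were the L-IRSdKO mice, and those of the NRF experiment were males. The labels give the strain or background of all groups as C57BL/6. By the methods, the mice of the NRF and injection experiments were C57BL/6N, the GR fl/fl mice were on a C57BL/6N background and the L-IRSdKO mice on a C57BL/6J background. The obesity mice were males that began the diet at 5 weeks of age. The GR fl/fl mice are described only as adult.

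Interferon-stimulated genes are switched on when interferon binds its receptor on the cell surface. JAK kinases then phosphorylate STAT proteins, and STAT2 joins IRF9 in a complex that binds the interferon-stimulated response element (ISRE) in DNA. The products sense viral RNA, block viral growth, or carry the signal further, and a low level of many of them is present in healthy tissue. Glucocorticoids are known to restrain inflammatory and interferon-driven gene expression in immune cells.

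The ISRE is the sequence that the complex of STAT2 and IRF9 binds, so it is shown first. Its core was searched as GAAANNGAAA, 2 copies of GAAA with 2 bases between them, on both strands of promoters that run from 250 bases before to 50 bases after a RefSeq start (GRCm38.p6). A promoter was present for 23 of the 33 members, and 13 of these 23 held the core, against 3.99% of 27025 genes. With a C after the core, 10 of 23 members held it, against 0.944% of genes. This is a description of letters in a window, and adjacent copies of the core overlap each other in several of these promoters. The lines below give 1 window for each of 8 members, with the core in capitals and 10 bases on each side, written on the strand on which the core reads in this direction.

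Isg15: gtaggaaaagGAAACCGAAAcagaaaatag
Ifit1: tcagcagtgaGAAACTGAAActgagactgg
Oas1a: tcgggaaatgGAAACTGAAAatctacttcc
Stat2: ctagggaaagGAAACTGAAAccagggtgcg
Ddx58: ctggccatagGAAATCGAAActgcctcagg
Bst2: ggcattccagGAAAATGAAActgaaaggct
Rsad2: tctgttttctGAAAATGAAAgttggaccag
Irgm1: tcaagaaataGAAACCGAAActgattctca

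On mm9, the build of the peak lists, each window was found by exact match near its gene. The windows lie at chr4:155574980-155575009 (Isg15, minus strand), chr19:34715284-34715313 (Ifit1, minus), chr5:121357529-121357558 (Oas1a, minus), chr10:127707322-127707351 (Stat2, minus), chr4:40186837-40186866 (Ddx58, plus), chr8:74061482-74061511 (Bst2, minus), chr12:27141418-27141447 (Rsad2, plus) and chr11:48684927-48684956 (Irgm1, minus). The Bst2 and Rsad2 windows lay inside a DNase hypersensitive site (DHS), and none of the 20 windows with complete flanks, from 12 members, overlapped a GR peak. The Oas1a and Oas1g windows were identical in sequence. In protein-coding transcripts, 53% of the 50-base words of Oas1a and 50.6% of those of Oas1g also occurred in another gene. Each of the pair shared most with the other, so that the split of reads between them is uncertain. The same holds for Ifit3, which shared 51.5% of its words with other genes, most with I830012O16Rik.

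The members spanned a wide range of levels. Bst2, which encodes tetherin, a membrane protein that holds budding virus at the cell surface, had the highest mean over the 54 livers, at 112 RPKM. Ifi27 followed at 77.3 RPKM and Irf7, the transcription factor that amplifies interferon production, at 19.6 RPKM. Oas3, an oligoadenylate synthetase that senses double-stranded RNA, was lowest at 0.276 RPKM. The interferons themselves were at or close to 0. Ifna1 and Ifna2 were listed at 0 in 54 of 54 livers, Ifnb1 and Ifna4 in 53, and Ifng, whose highest value was 0.412 RPKM, in 43. Genes at 0 in a table of RPKM may lie below the depth of the libraries. Depth in reads was not used here, and relative depths were estimated from the steps between low values. By this estimate, the deepest library of an experiment was between 1.24 and 2.08 times as deep as the shallowest. The study's supplement lists reads for part of the libraries, and there the obesity libraries range more widely than the estimate gives.

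Fold changes are given on the log2(RPKM + 0.5) scale with their standard error (SE), and a gene was called when its adjusted p in limma passed 0.05 in the injection, GR and IRS experiments or 0.01 in the NRF and obesity experiments. All p-values were adjusted over every gene tested.

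**Figure D1:**
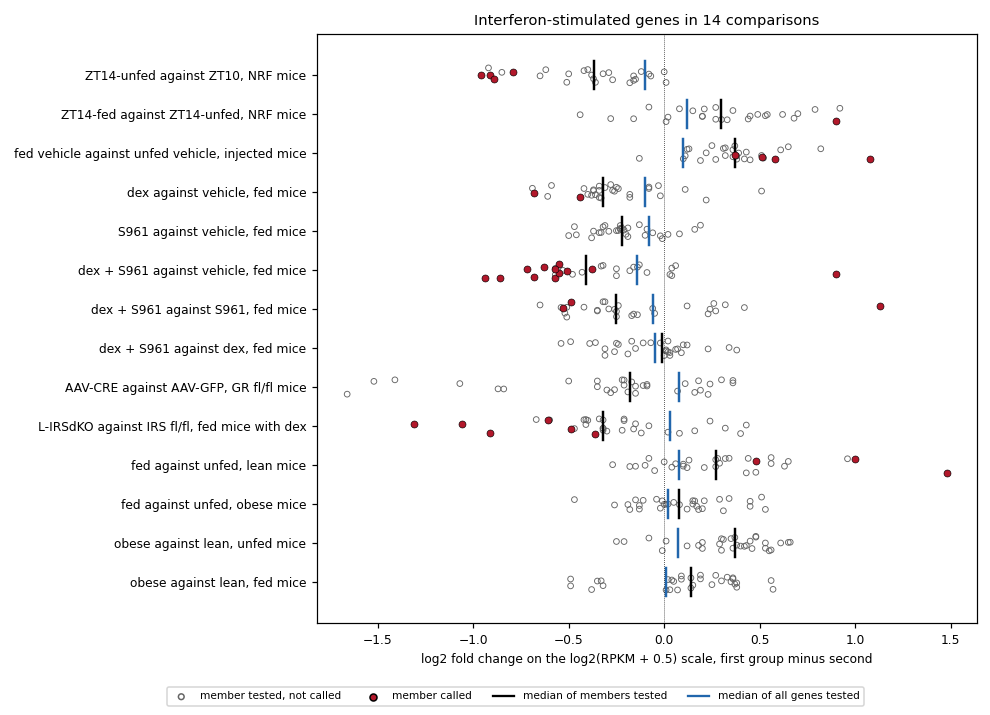
Each row is a comparison and each point a member tested in it, placed by its log2 fold change on the log2(RPKM + 0.5) scale (first group minus second). Filled red points passed the test, black bars are the median of the members tested and blue bars the median of all genes tested. The median of the members was at -0.32 in dex against vehicle and at -0.41 in dex + S961 against vehicle, and at 0.37 in fed against unfed mice given vehicle.

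Dex given before the meal lowered 2 neighbouring genes, Dtx3l and Parp9. Their products form a complex of a ubiquitin ligase and a PARP-family protein that acts in the interferon response. Dtx3l was at 13.2, 13.5, 12.9 and 14.4 RPKM in the 4 fed livers given vehicle and at 6.96, 7.34, 8.48 and 10.6 RPKM in those given dex, and the groups did not overlap. Its log2 fold change was -0.68 (SE 0.13, n = 4 per group, adjusted p = 0.007). Parp9 was at 14.5, 15.1, 16.2 and 16.0 RPKM after vehicle and at 11.2, 10.5, 12.7 and 10.6 RPKM after dex, again without overlap. Its log2 fold change was -0.44 (SE 0.10, adjusted p = 0.014). The genes lie head to head on chromosome 16, at chr16:35926597-35939237 for Dtx3l (minus strand) and chr16:35938556-35972691 for Parp9 (plus strand). They overlap on opposite strands over 9.4% of the exon bases of Parp9 and 8% of those of Dtx3l, and whether the counting used strand is not given in the sources used here.

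The 2 calls were 2 of 30 members tested, all lower, against 2.19% of 11251 genes called lower. Without overlap between the groups, 6 members were lower and 0 higher, against 8.15% and 2.37% of all genes. At an unadjusted p under 0.05, 10 of the 30 members were lower, against 14.4% of all genes. A log2 fold change below 0 was found for 27 of 30 members, against 67.5% of all genes, with a median of -0.32 against -0.10 over all genes. Among the members that did not pass were Zbp1, a sensor of Z-form nucleic acid (-0.69, SE 0.25, adjusted p = 0.14), and Ifih1, the RNA sensor MDA5 (-0.36, SE 0.12, adjusted p = 0.10). Irgm1, an interferon-induced GTPase, was at -0.42 (SE 0.13, adjusted p = 0.09). Usp18, the protease that removes ISG15 from proteins and also restrains signalling from the interferon receptor, had the highest fold change of the 30 members at 0.51 (SE 0.28, adjusted p = 0.35). Without the liver labelled dex 2, 1 member was called lower, and without dex 4, 5 were. Dex 4 was the highest of its group for 17 of the 33 members, for example Usp18 at 17.3 RPKM against 7.00 to 10.4 RPKM in the other 3, and Irf7 at 25.2 RPKM against 8.26 to 15.6 RPKM. The libraries of replicate 4 of every injected group carry identifiers of a later series, and 5 members were called lower both with a term for that series and in the first series alone. The share of all genes called in those settings is not given here, so these counts are not set against a background. A fit to the fed vehicle and fed dex livers alone, without the other injected groups, called none.

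Dex together with S961 lowered 11 members and raised 1. The 11 were Zbp1, Oasl1, Mx2, Rtp4, Parp14, Dtx3l, Ddx58, Stat2, Xaf1, Parp9 and Ifih1, and the one that rose was Usp18. This made 11 of 30 members lower against 7.90% of all genes, and 1 higher against 2.70%. In the unadjusted test at 0.05, 15 members were lower (20.7% of all genes) and 1 was higher (5.08% of all genes). The median log2 fold change of the members was -0.41, against -0.14 over all genes. Scaling each library by its median ratio moved the median of all genes to 0.01 and left 6 members called. Leaving out vehicle 1 or 2, or dex + S961 2 or 4, left 7 called in each case.

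**Figure D2:**
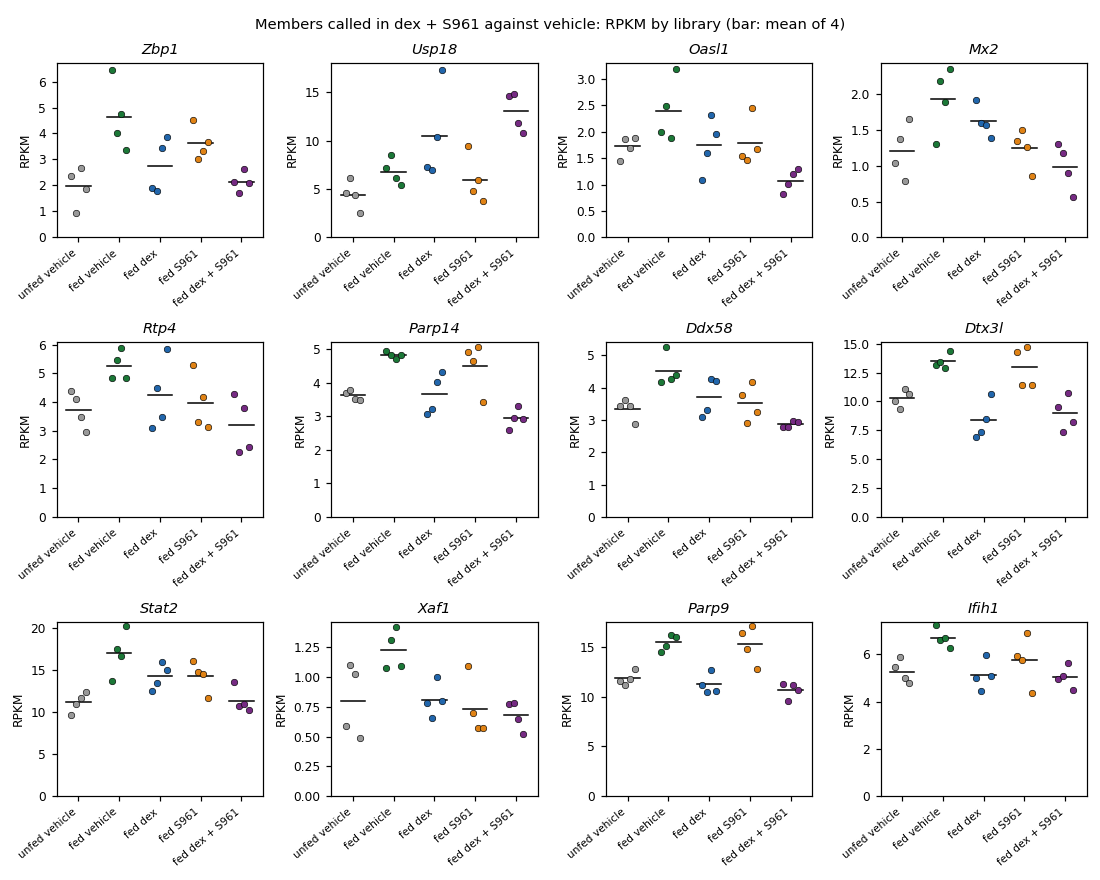
RPKM of the 12 members called in dex + S961 against vehicle, in each of the 20 livers of the injection experiment. Points are livers (4 per group), bars are group means, and each panel has its own axis from 0. In Parp14 and Ddx58, all 4 dex + S961 livers lie below all 4 fed vehicle livers, and in Usp18 all lie above them.

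Among the sensors of foreign nucleic acid, Zbp1 was at 6.44, 4.02, 4.74 and 3.36 RPKM after vehicle and at 2.13, 1.69, 2.65 and 2.08 RPKM after dex + S961 (-0.94, SE 0.25, adjusted p = 0.02). Ddx58, the RNA helicase RIG-I, was at 4.19, 5.28, 4.28 and 4.39 RPKM against 2.77, 2.79, 2.98 and 2.94 RPKM (-0.57, SE 0.12, adjusted p = 0.0047). Ifih1 was at 7.24, 6.63, 6.70 and 6.27 RPKM against 4.98, 5.08, 5.64 and 4.50 RPKM (-0.38, SE 0.12, adjusted p = 0.046). All 3 were lower in every treated liver than in any vehicle liver. The helicase LGP2 (Dhx58), which modulates the other RNA sensors, did not pass (-0.43, SE 0.20, adjusted p = 0.18).

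Of the transcription factors, Stat2, a subunit of the complex that binds the ISRE, was at 13.7, 17.4, 16.6 and 20.2 RPKM after vehicle and at 13.5, 10.7, 10.9 and 10.3 RPKM after dex + S961 (-0.55, SE 0.13, adjusted p = 0.0093). The 2 groups lay close at the edge, with the highest treated liver just under the lowest vehicle liver. Irf7 and Irf9 did not pass. Irf9, the DNA-binding subunit of the complex, was at 8.88, 12.5, 12.1 and 11.8 RPKM after vehicle and at 10.6, 9.21, 10.0 and 7.70 RPKM after dex + S961, and the groups overlapped.

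The PARP-family members and their partner moved in the same direction. Parp14 was at 4.95, 4.83, 4.71 and 4.85 RPKM after vehicle and at 2.60, 2.94, 3.31 and 2.93 RPKM after dex + S961 (-0.63, SE 0.12, adjusted p = 0.0021). Parp9 was at 11.3, 9.60, 11.2 and 10.6 RPKM in the treated livers (-0.51, SE 0.10, adjusted p = 0.0023). Dtx3l was at 9.56, 7.37, 10.8 and 8.26 RPKM (-0.57, SE 0.13, adjusted p = 0.009). None of the 3 overlapped the vehicle group.

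Of the effectors and the less well-described members, Oasl1, an oligoadenylate synthetase-like protein that inhibits translation of Irf7, was at 2.00, 2.49, 1.89 and 3.18 RPKM after vehicle and at 0.822, 1.00, 1.19 and 1.29 RPKM after dex + S961 (-0.86, SE 0.18, adjusted p = 0.005). Mx2 is represented here by a non-coding RefSeq entry, so its values are not read as those of an antiviral protein. It was at 1.30, 2.18, 1.89 and 2.34 RPKM against 1.30, 1.17, 0.892 and 0.566 RPKM (-0.72, SE 0.19, adjusted p = 0.022). Mx2 was the only one of the 12 whose groups overlapped, with the highest treated liver level with the lowest vehicle liver. Of all 30 members tested, 11 were lower without overlap, against 13.5% of all genes, and 1 was higher, against 3.61%. Rtp4, a receptor transporter protein, was at 4.85, 5.46, 5.90 and 4.84 RPKM against 4.27, 2.25, 3.81 and 2.45 RPKM (-0.68, SE 0.20, adjusted p = 0.037). Xaf1, a partner of the apoptosis inhibitor XIAP, was at 1.08, 1.32, 1.42 and 1.09 RPKM against 0.772, 0.779, 0.649 and 0.526 RPKM (-0.55, SE 0.17, adjusted p = 0.046). Xaf1 lay close to the filter, and its call was kept in 4 of 19 other settings.

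Usp18 went the other way. It was at 7.17, 8.47, 6.13 and 5.43 RPKM after vehicle and at 14.6, 14.9, 11.8 and 10.8 RPKM after dex + S961 (0.90, SE 0.28, adjusted p = 0.048), without overlap. With S961 alone it was at 9.42, 4.78, 5.92 and 3.74 RPKM, and dex + S961 against S961 gave a log2 fold change of 1.13 (SE 0.28, adjusted p = 0.046). Both calls lie close to the threshold and were kept in 9 and 10 of 20 other settings.

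S961 alone left no member past the test in limma, against 1.90% of genes called. Before adjustment, at p under 0.05, 5 of 30 members were lower (Irf7, Mx2, Ddx58, Xaf1 and Irgm1), against 10.2% of all genes. The median of the members was -0.22 against -0.08. Dex added to S961 lowered Parp14 (4.91, 4.66, 5.09 and 3.42 RPKM after S961; -0.53, SE 0.12, adjusted p = 0.02) and Parp9 (16.4, 14.9, 17.2 and 12.7 RPKM after S961; -0.49, SE 0.10, adjusted p = 0.0083) and raised Usp18. This was 2 members lower against 0.871% of genes, and 1 higher against 1.04%. With p unadjusted and under 0.05, 6 were lower against 8.31% and 1 higher against 3.75%. Leaving out S961 3, or dex + S961 1, 2 or 4, left 1 of these 3 calls, and a fit to these 2 groups alone left none. S961 added to dex left none of 30 past the test, against 2.96% of genes called. By unadjusted p under 0.05, 5 members were lower there (9.23% of all genes) and 1 higher (6.53% of all genes). The dex by S961 interaction called no gene in the whole table (0%), and at an unadjusted p under 0.05 it held 2 members, Irgm1 (0.66, SE 0.19) and Irf7 (0.69, SE 0.31), against 3.00% of all genes with a positive value. That the drugs acted differently together than apart was therefore not shown for any member. These comparisons share control groups, so their counts are not independent of each other.

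Genes of macrophages moved in the same livers. The summed RPKM of 8 Kupffer cell and macrophage markers ranged from 81.5 to 118 in the fed livers given vehicle, from 49.6 to 85.0 after dex, from 54.4 to 79.5 after S961, and from 60.3 to 73.9 after dex + S961. Of the 8 markers, 1 was called lower with dex (Cd5l), 3 with S961 (Adgre1, Cd5l and Csf1r) and 4 with dex + S961 (Adgre1, Cd5l, Vsig4 and Csf1r), and 2 of 5 sinusoidal endothelial markers were lower with dex (Clec4g and Kdr). The part of these cells in the members' values was not tested. In whole liver, fewer cells of a type and less RNA per cell cannot be told apart. Markers of T and NK cells summed to 1.80 RPKM at most in the injected mice and those of B cells to 0.70 RPKM at most.

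Of the genes around the pathway, 31 were in the table and 23 were tested in the injected mice. Dex lowered 1 of 23, Ifnar1, a subunit of the type I interferon receptor (6.22 to 4.49 RPKM, -0.43, SE 0.10, adjusted p = 0.019). Dex + S961 lowered 4 of 23, among them the transcription factor Irf1 (9.30 to 4.49 RPKM, -0.90, SE 0.24), the adaptor Mavs (41.0 to 31.5 RPKM, -0.38, SE 0.10) and the RNA-editing enzyme Adar (3.71 to 2.38 RPKM, -0.54, SE 0.12). Of 25 further interferon-induced genes, 23 were tested. Dex lowered 2, Iigp1 and Trim25, and dex + S961 lowered 5, Eif2ak2, Irgm2, Tap1, Trim21 and Slfn5. None of these genes was called higher in either comparison.

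Loss of GR in liver is the second comparison with weight, and its livers were split in a way the virus does not describe. Nr3c1, the gene for GR, was at 12.8, 14.5, 13.2 and 16.2 RPKM after AAV-GFP and at 3.93, 4.23, 4.14 and 5.35 RPKM after AAV-CRE (-1.58, SE 0.12, adjusted p = 6.8e-05). The GR target Fkbp5 was lower in AAV-CRE as well (-2.64, SE 0.18), so the labels held in all 8 livers. The members split within both groups. AAV-GFP 3 was the lowest of its group for 26 of the 33 members and AAV-GFP 4 the highest for 30. AAV-CRE 4 was the highest of its group for all 33.

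**Figure D3:**
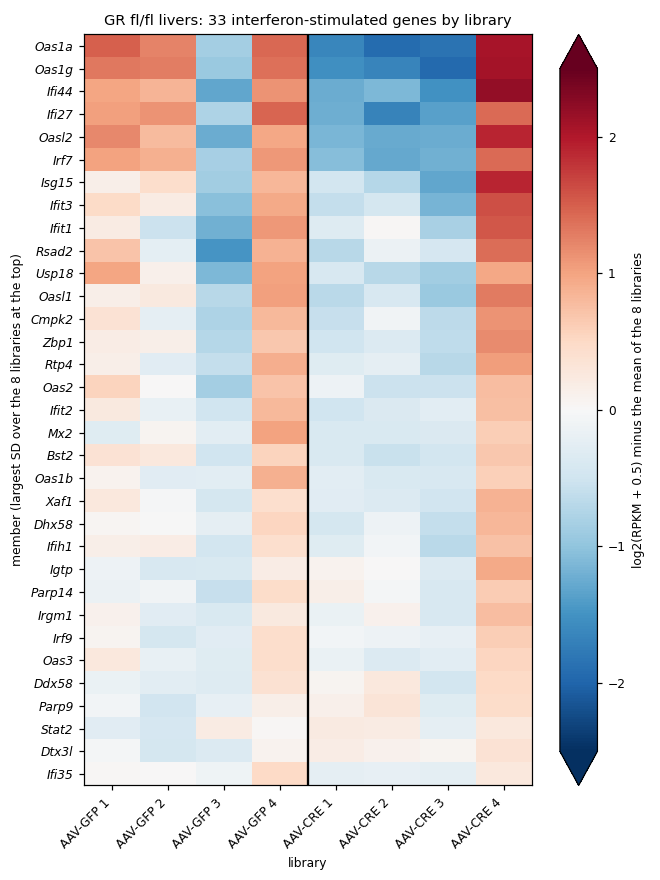
Rows are the 33 members, ordered by their SD over the 8 GR fl/fl livers, and columns are the livers. The colour gives log2(RPKM + 0.5) minus the mean of the 8 livers, red above and blue below. AAV-CRE 4 is red throughout, and AAV-GFP 3, AAV-CRE 1, AAV-CRE 2 and AAV-CRE 3 are blue in most rows.

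The SD over the 8 livers was highest for Oas1a, Oas1g, Ifi44, Ifi27, Oasl2 and Irf7. Oas1a, named here after its values were seen, was at 14.3, 11.8, 2.41 and 13.6 RPKM in AAV-GFP 1 to 4 and at 1.20, 0.884, 0.954 and 21.4 RPKM in AAV-CRE 1 to 4. Ifi27 was at 318, 340, 92.0 and 429 RPKM in AAV-GFP and at 66.9, 48.5, 61.0 and 420 RPKM in AAV-CRE. Irf7 was at 72.4, 66.8, 20.1 and 76.5 RPKM and at 16.8, 14.5, 15.3 and 96.7 RPKM. In all 3, AAV-GFP 1, 2 and 4 and AAV-CRE 4 were high and the other 4 livers low, so the ranges of the groups overlapped. Bst2 was at 221, 207, 122 and 254 RPKM in AAV-GFP and at 131, 117, 125 and 274 RPKM in AAV-CRE. Isg15, a ubiquitin-like protein that is attached to other proteins (also chosen after its values were seen), was at 9.12, 11.3, 4.29 and 14.9 RPKM and at 5.83, 4.84, 3.03 and 32.2 RPKM. The value of AAV-CRE 4 over the mean of AAV-CRE 1 to 3 ran from 1.14 for Stat2 to 32.5 for Oas1g.

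**Figure D4:**
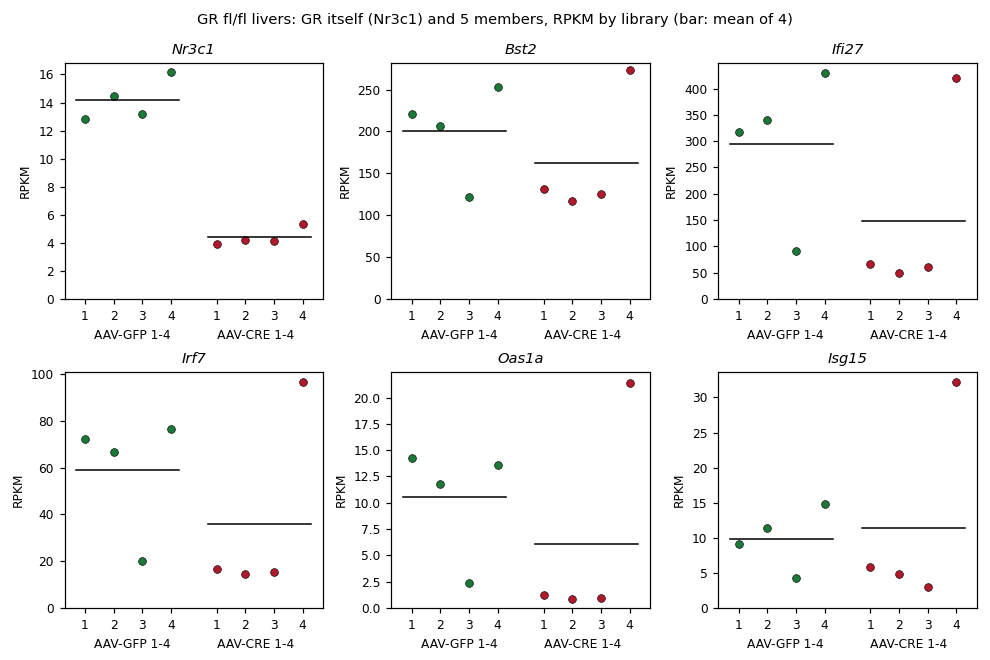
RPKM in each GR fl/fl liver (AAV-GFP 1 to 4 and AAV-CRE 1 to 4), for Nr3c1 and 5 members. Bars are group means and each axis starts at 0. Nr3c1 lies between 3.93 and 5.35 RPKM in all AAV-CRE livers, whereas the 5 members are high in AAV-CRE 4 and low in AAV-GFP 3.

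With all 8 livers, none of 32 members tested passed in limma, against 6.68% of 11649 genes called. By unadjusted p under 0.05, 1 member was higher, Dtx3l (0.36, SE 0.13, adjusted p = 0.14), against 15.1% of all genes. The spread within groups was large for these genes. The median SD of the members was 0.59 in AAV-GFP and 0.63 in AAV-CRE on the log2(RPKM + 0.5) scale, against 0.19 and 0.16 over all genes, and 19 and 23 of 32 members exceeded the SD that 95% of genes stay under. In no other group did more than 5 members do so.

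Without AAV-CRE 4, 4 members were called lower in AAV-CRE, namely Oas1a (-2.63, SE 0.48, adjusted p = 0.012), Oas1g (-2.47, SE 0.49, adjusted p = 0.016), Ifi27 (-2.12, SE 0.43, adjusted p = 0.017) and Irf7 (-1.72, SE 0.39, adjusted p = 0.028). The share of all genes called without AAV-CRE 4 is not given here, so these 4 calls are not set against a background. The median over the members was then -0.47, against -0.18 with all livers and 0.08 over all genes with all livers. Without AAV-GFP 3, none was called and the median was -0.38. Leaving out any other liver called none, with medians from -0.20 to 0.03. A single liver thus decided whether any member was called, and no direction for liver GR loss is drawn from these values.

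Other measures of the 8 livers are given beside this split. The Kupffer cell and macrophage markers summed to 178, 127, 74.7 and 112 RPKM in AAV-GFP 1 to 4 and to 82.4, 89.9, 93.3 and 147 RPKM in AAV-CRE 1 to 4. Within their groups they were lowest in AAV-GFP 3 and highest in AAV-CRE 4, as most members were. AAV-GFP 4, the highest of its group for 30 of the 33 members, lay below AAV-GFP 1 and 2 for these markers. The markers of T and NK cells, B cells and plasmacytoid dendritic cells were also highest in AAV-CRE 4 and lowest in AAV-GFP 3 within their groups, with sums of at most 3.70 RPKM. Of these markers, 0 of 8, 1 of 4 and 1 of 4 reached the mean of 0.5 RPKM needed for a test. In the AAV-GFP group each of these sums was highest in AAV-GFP 1. The markers of neutrophils, sinusoidal endothelial cells, stellate cells and cholangiocytes were not highest in AAV-CRE 4. Of these, only the endothelial markers were lowest in AAV-GFP 3. The hepatocyte markers summed to 38876, 33704, 48672 and 32912 RPKM in AAV-GFP, highest in AAV-GFP 3, and to 48071, 39155, 37537 and 39697 RPKM in AAV-CRE, where AAV-CRE 4 lay between the others. Beyond the members, B2m, the light chain of MHC class I, was at 1820, 1542, 1155 and 1993 RPKM in AAV-GFP and at 1209, 1066, 1267 and 1989 RPKM in AAV-CRE, high and low in the same livers. The sum of the pathway genes ranged from 182 to 239 RPKM over the 8 livers and was highest in AAV-GFP 4 and AAV-CRE 4. None of the pathway genes and none of the further interferon-induced genes was called between the viruses. Relative depth, as estimated from the steps between low values, followed the split. The high livers AAV-GFP 1, 2 and 4 and AAV-CRE 4 were at 0.66, 0.59, 0.53 and 0.64 of the deepest library. The low livers AAV-GFP 3 and AAV-CRE 1, 2 and 3 were at 0.74, 1.00, 0.73 and 0.82. By this estimate every high liver was shallower than every low one. The reads listed in the study's supplement do not follow the split. There AAV-GFP 4 has more reads than any of these low livers, and AAV-CRE 4 has fewer. The part of these cells and of depth in the members' values was not tested.

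Feeding was also compared without drugs. In the injected mice given vehicle, feeding raised 4 of 30 members and lowered none, against 2.55% of all genes called higher. Zbp1 was at 2.38, 0.948, 2.69 and 1.88 RPKM without food and rose with food to the levels given above for vehicle (1.08, SE 0.25, adjusted p = 0.026). Stat2 was at 9.62, 11.0, 11.7 and 12.4 RPKM unfed (0.58, SE 0.13, adjusted p = 0.023). Irgm1 was at 13.1, 14.3, 13.0 and 13.0 RPKM unfed and at 19.6, 20.2, 19.3 and 17.8 RPKM fed (0.51, SE 0.13, adjusted p = 0.044). Parp9 was at 11.5, 11.2, 11.8 and 12.8 RPKM unfed (0.37, SE 0.10, adjusted p = 0.042). In all 4 genes the fed and unfed livers did not overlap. Of the 30 members, 14 were higher without overlap and 0 lower, against 11% and 2.5% of all genes. At an unadjusted p under 0.05, 17 of 30 members were higher, against 15.5% of all genes, and 29 of 30 had a positive value, with a median of 0.37 against 0.10. With a term for the library series, 8 members were called, and without fed vehicle 2 or unfed vehicle 2 none was. For such other settings the share of all genes called is not given here. A fit to these 2 groups alone called 1. Without fed vehicle 1 or 3 or unfed vehicle 1, 1 was called, and without unfed vehicle 3, 2 were. In the same livers 4 of the 8 Kupffer markers were called higher with food (Adgre1, Cd5l, Csf1r and Timd4), from sums of 57.2 to 70.0 RPKM unfed. Their part in the members' values was not tested. Around the pathway, feeding raised 3 of 23 genes tested, among them Ifnar1 and Adar, and, of the further genes, Irgm2 and Samhd1 (2 of 23). The fed vehicle livers are also the controls of the drug comparisons, so a high value there enters both.

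In lean mice of the obesity experiment, which share no liver with the injected mice, feeding raised 3 of 31 members, against 7.00% of all genes called higher. The share of members called was thus close to that of all genes. Oasl1 was at 1.51, 1.07 and 1.39 RPKM unfed and at 4.73, 4.69 and 4.26 RPKM fed (1.48, SE 0.17, n = 3 per group, adjusted p = 0.00037). Irgm1 was at 11.3, 11.5 and 12.1 RPKM unfed and at 22.7, 24.8 and 23.8 RPKM fed (1.00, SE 0.12, adjusted p = 0.00042). Parp9 was at 11.6, 12.2 and 11.8 RPKM unfed and at 16.3, 17.9 and 16.1 RPKM fed (0.48, SE 0.10, adjusted p = 0.0067). None of the 3 overlapped between groups. Of the 31 members, 13 were higher without overlap and 1 lower, against 29% and 14.3% of all genes. In the unadjusted test at 0.05, 13 members were higher, against 24.8% of all genes, and the median of the members was 0.27 against 0.08. Here the Kupffer markers were not higher with food, with sums of 58.5 to 71.1 RPKM unfed and 44.0 to 59.0 RPKM fed, and none of the 8 was called. Feeding of lean mice also raised Irf1 (6.30 to 12.1 RPKM, 0.89, SE 0.12, adjusted p = 0.00068), Mavs and Irf3 of the pathway list and Irgm2 of the further genes.

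**Figure D5:**
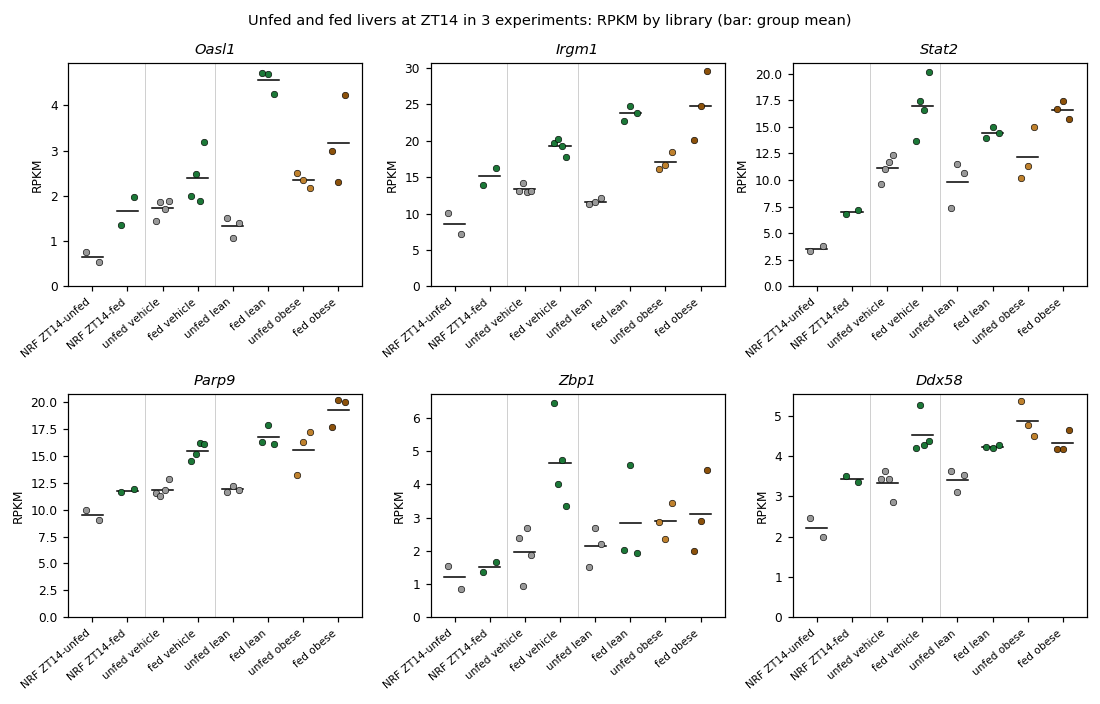
RPKM of 6 members in unfed and fed livers at ZT14, in the NRF (2 livers per group), injection (4) and obesity (3) experiments. Points are livers, bars are group means, each axis starts at 0, and levels should be compared within an experiment only. Irgm1 and Parp9 are higher in each fed group than in its unfed group, and Oasl1 is at 4.26 to 4.73 RPKM in fed lean mice against 1.07 to 1.51 RPKM in unfed lean mice.

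In the NRF experiment, food raised Stat2, from 3.31 and 3.78 RPKM at ZT14 without food to 6.83 and 7.21 RPKM with food (0.90, SE 0.12, n = 2 per group, adjusted p = 0.0091). It was the only one of 27 members called, against 0.568% of all genes called higher. Before adjustment, at p under 0.05, 14 were higher, against 22.0% of all genes, and 1 lower, Rsad2 (-0.44), the antiviral enzyme viperin, against 5.74%. The passage from ZT10 to ZT14 without food lowered 4 of 27 members, against 0.788% of all genes called lower. Ifit1, which binds foreign RNA ends, went from 2.51 and 2.43 RPKM to 1.03 and 1.02 RPKM (-0.96, SE 0.11, adjusted p = 0.0065). Ddx58 went from 4.71 and 4.48 RPKM to 2.46 and 2.00 RPKM (-0.91, SE 0.12, adjusted p = 0.0093). Rtp4 (-0.89, SE 0.11, adjusted p = 0.0084) and Ifih1 (-0.79, SE 0.10, adjusted p = 0.0092) were the others. With p unadjusted and under 0.05, 13 members were lower, against 20.7% of all genes. These calls rest on 2 livers per group, and a fit to the 2 compared groups alone called none for either comparison. Without any 1 of the 4 livers compared, no member was called for food, and for the passage from ZT10 none or, without ZT14-unfed 1, 1 was.

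In obese mice, feeding called no member in limma, against 1.22% of genes called. The obese mice had been on the high-fat diet and the lean mice on chow, and the food of the meal itself is not stated. Obesity and the kind of food eaten therefore cannot be told apart in the comparisons of obese with lean mice. By unadjusted p under 0.05, 5 of 31 members were higher (Oas1b, Stat2, Parp9, Dtx3l and Irgm1), against 15.0% of all genes. Irgm1 was at 16.1, 16.6 and 18.4 RPKM unfed and at 20.2, 24.8 and 29.6 RPKM fed (0.51, SE 0.12, adjusted p = 0.027, which misses the threshold of 0.01). Oasl1 was at 2.52, 2.34 and 2.16 RPKM unfed and at 2.98, 2.32 and 4.23 RPKM fed, and these groups overlapped. The difference between the meal effects in obese and lean mice was -1.14 (SE 0.23, adjusted p = 0.054) for Oasl1, the lowest p of the members. No member passed that interaction, against 0.131% of genes, and at an unadjusted p under 0.05, 7 had a smaller meal effect in obese mice (9.19% of all genes) and 1 a larger one (5.79% of all genes).

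Unfed obese mice had higher values than unfed lean mice for many members, without a call. None of 31 passed in limma, against 0.770% of genes called, while 13 were higher at an unadjusted p under 0.05, against 16.4% of all genes. The median was 0.37 against 0.07. Ddx58 was at 5.37, 4.78 and 4.50 RPKM in obese and at 3.63, 3.10 and 3.52 RPKM in lean mice (0.46, SE 0.09, adjusted p = 0.017), with the groups apart. Without overlap, 18 of the 31 members were higher and 0 lower, against 16.2% and 6.73% of all genes. Mx2 was at 0.66 (SE 0.15, adjusted p = 0.036) and Parp14 at 0.55 (SE 0.12, adjusted p = 0.031), both past 0.05 and short of the 0.01 used here. Of the genes outside the list, Irf1 (6.30 to 11.6 RPKM, 0.83, SE 0.12, adjusted p = 0.0046) and Tap1, a peptide transporter (3.10 to 6.71 RPKM, 1.00, SE 0.13, adjusted p = 0.0033), were called higher. In fed mice no gene of the table was called between obese and lean (0%). By unadjusted p under 0.05, 5 members were higher (10.5% of all genes) and 3 lower (9.48% of all genes).

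Loss of IRS1 and IRS2 in fed mice given dex lowered 6 of 33 members and raised none, against 8.31% of 12966 genes called lower. Irs1 fell in L-IRSdKO (-2.66, SE 0.25), and Irs2 did not pass the test (-0.79, SE 0.50, adjusted p = 0.31). Ifi27 was at 102, 91.4, 103 and 98.6 RPKM in IRS fl/fl and at 60.0, 46.4, 42.1 and 41.8 RPKM in L-IRSdKO (-1.06, SE 0.11, n = 4 per group, adjusted p = 0.0017). Stat2 was at 34.2 ± 1.29 RPKM (SD) in IRS fl/fl and at 26.7, 21.4, 20.9 and 20.4 RPKM in L-IRSdKO (-0.61, SE 0.10, adjusted p = 0.0056). Isg15 was at 10.6, 12.8, 5.76 and 19.8 RPKM against 4.35, 4.08, 4.26 and 4.14 RPKM (-1.31, SE 0.30, adjusted p = 0.019). In these 3 genes the groups did not overlap, and Isg15 varied more among the IRS fl/fl livers than among the knockouts. Of the 33 members, 8 were lower without overlap and 1 higher, against 9.58% and 12.1% of all genes. Parp9 (-0.49, SE 0.10, adjusted p = 0.012), Dhx58 (-0.91, SE 0.25, adjusted p = 0.036) and Bst2 (-0.36, SE 0.09, adjusted p = 0.026) were also lower. At an unadjusted p under 0.05, 11 of 33 members were lower, against 14.8% of all genes, and the median was -0.32 against 0.03. IRS fl/fl 4 was the highest of its group for 23 of the 33 members, with Zbp1 at 24.0 RPKM against 3.53 to 4.71 RPKM in the other 3. Leaving out L-IRSdKO 2, 3 or 4 left 3 members called. The Kupffer markers went the other way, with sums of 167 to 306 RPKM in IRS fl/fl and 289 to 362 RPKM in L-IRSdKO and 2 of 8 called higher (Clec4f and Timd4). Of 5 sinusoidal endothelial markers, 3 were also higher (Stab2, Lyve1 and Pecam1), with sums of 88.9 to 116 RPKM in IRS fl/fl and 108 to 143 RPKM in L-IRSdKO. Lower, as the members were, were 2 of 6 hepatocyte markers (Ttr and Serpina1c), with sums of 2572 to 2903 and 2279 to 2709 RPKM. So were 2 of 5 cholangiocyte markers (Krt7 and Spp1), with sums of 19.7 to 46.2 RPKM in IRS fl/fl and 7.87 to 13.9 RPKM in L-IRSdKO. The part of these cells in the members' values was not tested. Of the genes around the pathway, Irf3, Myd88 and Adar were lower and Ifngr1 and Tlr7 higher, and of the further genes Iigp1, Psmb8 and Psmb9 were lower and Slfn5 higher. Alb, the gene for albumin and the most abundant in the other experiments, was at 914 RPKM or lower in these 8 livers, so their RPKM scale differs and levels are not compared with the other experiments.

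The peak lists place these genes relative to GR and FOXO1 peaks in unfed liver and to DHSs called on the combined reads of fed and unfed liver. On mm9 with GENCODE gene starts, 32 of the 33 members were placed. A GR peak lay within 50 kb of 17 of 32 (53.1%), against 33.8% of 19783 genes and 48% of genes expressed in these livers. A FOXO1 peak lay within 50 kb of 15 of 32 (46.9%), against 35.4% and 50.7%. A DHS lay within 2 kb of 28 of 32 (87.5%), against 58.8% and 88.7%. The shares of the members were thus close to those of expressed genes, and neighbouring members share peaks.

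Single loci are given for the members that dex or dex + S961 moved. Parp9 and Dtx3l shared a GR peak at chr16:35932817-35932996, which lies 5560 and 6241 bases from their starts, within Dtx3l, and overlaps a FOXO1 peak and a DHS. Oasl1 had a GR peak 665 bases before its start that overlaps a FOXO1 peak and a DHS. Stat2 had GR peaks 965 and 1961 bases before its start, and Usp18 had 5 within 50 kb, the nearest at 1332 bases. Rtp4 had one at 2950 bases, Parp14 one at 29134 bases and Ddx58 one at 34045 bases. Zbp1, Mx2, Xaf1 and Ifih1 had none within 50 kb.

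The core of the GR motif was searched as ACANNNTGT on both strands, since GR binds DNA as a pair at such palindromes. It was found in 6 of the 27 GR peaks near members, against 20.3% of all 10446 GR peaks. The lines show it, in capitals, at the members that moved with dex + S961.

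Usp18: gggaacaaatACAGTTTGTtccctagaac
Oasl1: tccaggtcctACAGTGTGTatttctcata
Stat2: atgatcaggaACAGAGTGTccacaatgtg

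These lie on mm9 at chr6:121194525-121194553, chr5:115372464-115372492 and chr10:127706555-127706583, written on the plus strand, and the Usp18 window lies in the peak nearest to its start. The peak shared by Parp9 and Dtx3l did not hold these letters. The forkhead core GTAAACA was in 6 of the 21 FOXO1 peaks near members, against 18.8% of all 8546 FOXO1 peaks, for example in the peak 112 bases from the start of Rsad2.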

How the data were processed

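RNA from mouse livers was sequenced after ribosomal RNA depletion (NRF experiment) or polyadenylated RNA enrichment (the others). The authors deposited RPKM per RefSeq entry, normalized to transcript length and mapped reads. The table held 35707 entries, 300 of which had no symbol, and 24312 symbols were used, each by the entry with the highest mean. Read counts were not analysed here, so values were tested as log2(RPKM + 0.5) in limma 3.58.1 (R 4.3.3), within each experiment, on group means with a variance trend, for genes whose mean over the experiment's livers reached 0.5 RPKM. P-values were adjusted by the Benjamini-Hochberg method over all genes tested. Peak lists were deposited by the authors as positions only (mm9; HOMER, with replicate-concordant GR and FOXO1 peaks and DHSs called on combined libraries). ISRE and motif letters were matched in Python 3.11.15 with RefSeq promoters (GRCm38.p6) and the mm9 genome. Fits were tested on simulated data with known changes. In the injection experiment 79% of 100 genes changed by 1 on the log2 scale and 29% of 100 changed by 0.5 were recovered at an adjusted p of 0.05.

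Groups came from the sample labels, and the replicates were taken as separate livers. The labels do not tie each to its own mouse. The part of the study's supplement used here gives the GR, IRS and obesity libraries it lists as each from a single mouse. For the NRF and injection experiments this was not seen, so p-values measure the spread between these samples. The members and the gene lists were chosen with earlier results of these data known. Values in every library are given for members called in the dex, dex + S961 or AAV-CRE comparison and for the 3 of highest mean RPKM, and other members mostly by ranges and counts. Library values of Irgm1, Ifit1, Irf9, Isg15 and Oas1a, outside that rule, were added after their values were seen. The labels and the methods differ in how they give the S961 dose and the time of virus injection, so neither is printed. Each gene was also tested under other pseudocounts, filters, scalings and thresholds, with a replicate block, with a term for the library series and without each library in turn. One gene of the lists is not reported here.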

Additional observations from a re-analysis of the deposited data

Results flagged for a closer look

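Of 297 sets of 4 livers tested for a single liver far from the rest (Dixon's test at 95%, which chance passes in about 1 in 20 sets), 36 were marked, 21 of them in AAV-CRE 4. Of the 162 sets for the members chosen to be named and for the members' median, 18 were marked. AAV-CRE 4 stood far above the other AAV-CRE livers for Isg15 (32.2 RPKM), Oas1a (21.4 RPKM), Oasl1 (12 RPKM), Irf7 (96.7 RPKM), Usp18 (13.4 RPKM), Mx2 (3.16 RPKM), Xaf1 (2.64 RPKM), Rtp4 (12.4 RPKM), Bst2 (274 RPKM), Zbp1 (9.93 RPKM) and Ifi27 (420 RPKM). AAV-CRE 3 stood below the other AAV-CRE livers for Stat2 (12.8 RPKM). In the IRS experiment, L-IRSdKO 1 stood above its group for Stat2 (26.7 RPKM) and Parp9 (20.4 RPKM), IRS fl/fl 3 for Mx2 (4.83 RPKM) and IRS fl/fl 4 for Zbp1 (24 RPKM). In the injection experiment, unfed vehicle 4 stood above its group for Bst2 (125 RPKM) and dex 3 for Ifi27 (49.3 RPKM).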

How the results depend on the processing

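Each count of members called was set beside other choices. The share of all genes called under those choices is not given here. A shift in a count may therefore be shared by the genes outside the list. For ZT14-unfed against ZT10 (4 called), no filter, quantile normalization and the compared groups alone gave 0, median-ratio scaling 1 and no variance trend 2; leaving out a library gave 0 to 1. For ZT14-fed against ZT14-unfed (1), no filter, both scalings, no variance trend and the groups alone gave 0, adjusted p under 0.05 gave 6, and leaving out a library 0. For fed against unfed vehicle (4), median-ratio scaling and the groups alone gave 1, quantile normalization 2, adjusted p under 0.01 gave 0 and the library series term 8; leaving out a library gave 0 to 4. For dex (2), the groups alone gave 0, adjusted p under 0.01 gave 1, the series term and the first series alone 5; leaving out a library gave 1 to 5. For dex + S961 against vehicle (12), median-ratio scaling and adjusted p under 0.01 gave 6 and quantile normalization 7; leaving out a library gave 7 to 10. For dex + S961 against S961 (3), adjusted p under 0.01 gave 1 and the groups alone 0; leaving out a library gave 1 to 3. Leaving out a library gave 0 to 4 for AAV-CRE (0), 3 to 8 for L-IRSdKO (6), 0 to 1 for the obese meal (0) and 0 to 1 for unfed obese against lean (0). Adjusted p under 0.01 gave 2 for L-IRSdKO, and adjusted p under 0.05 gave 11 for the lean meal (3), 2 for the obese meal and 5 for unfed obese against lean. A FOXO1 peak lay within 20 kb of 7 members and within 100 kb of 23, against 15 within 50 kb. The cause of these shifts was not tested, except that a stricter threshold cannot call more genes from the same fit. Leaving out a library lowered some counts and raised others.

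The labels do not say that a replicate number marks a shared batch or day, and not every same-numbered pair correlated above 0.1, so the numbers were not used to pair the livers. In the injection experiment, deviations of same-numbered livers correlated at -0.12 to 0.61, with 27 of 40 pairs over 0.1, a median of 0.14 against -0.05 for other numbers, and 11 of 20 livers closest to their own number. In the other experiments the correlations were -0.20 to 0.22. With the replicate number as a block, the count was 0 for both NRF comparisons and 5 for dex, and within 1.5 times the reported count elsewhere. Of 35 calls of a member in a comparison, none reversed in 636 other settings, 435 of which kept the call, and 9 calls were kept in every setting run.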
